A study of Homo sapiens with 18 samples.

Results

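MDA-MB-231 cells, a human breast cancer line with mesenchymal features, were exposed to paclitaxel under hypoxia (H tax) or under normoxia (N tax), and the transcripts of both conditions were compared to ask what low oxygen changed while the drug was present. The comparison used the arrays whose titles name these conditions, 3 H tax and 3 N tax arrays, 6 of the 18 Affymetrix HG-U133 Plus 2.0 arrays of the series. H tax cells were kept at 1% O2 and N tax cells at 20% O2, both with 50 µM paclitaxel for 16 hours in a CO2-independent medium without serum. The cells of H epi and N epi received 10 µM epirubicin in place of paclitaxel, and those of H and N received no drug, at the same oxygen levels and for the same time. No genetic change was made in any of the 6 conditions, all of which came from 1 cell line. The methods describe independent experiments, while the labels name no separate cultures. On the arrays numbered 3, the source name gives another drug treatment than the title, so the main counts and the calls that were lost are given also with arrays 1 and 2 only (4 arrays, 2 for each condition).

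Cells sense oxygen mainly through prolyl hydroxylases of the EGLN family, which mark the alpha subunit of hypoxia-inducible factor (HIF) for destruction while oxygen is present. When oxygen falls, HIF-1 and HIF-2 accumulate and raise genes of glucose uptake, glycolysis, pH control, mitophagy, collagen maturation and blood vessel growth. Paclitaxel, a taxane, stabilizes microtubules, arrests cells in mitosis and can lead them to apoptosis.

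Of 54613 probe sets, 23416 were tested, those above the study's presence threshold (3.14 on the log2 scale of the GC-RMA signal) on at least 2 of the 3 arrays of H tax or of N tax. Between 42.2% and 42.6% of the probe sets were above it on each of the 6 arrays. The array titled H tax 3 correlated with the other H tax arrays at 0.998 and with the H arrays, the condition in its source name, at 0.987, and N tax 3 correlated with the other N tax arrays at 0.998 and with the N arrays at 0.988. Of 10 mesenchymal and basal cell markers, 9 were above the threshold on all 6 arrays, with VIM between 15.69 and 15.77 in H tax and between 15.60 and 15.66 in N tax. Of 11 luminal markers, 7 were above the threshold on all 6 arrays, among them KRT18, KRT19 and KRT8. The other luminal markers, ESR1, PGR, FOXA1 and CDH1, and the leukocyte marker PTPRC were under it on all 6 arrays. The summed linear signal of the 11 luminal markers was 30894 to 35967 in H tax and 27960 to 29088 in N tax, and its part in the results was not tested. Because the samples are bulk RNA, fewer cells of a type and less RNA per cell cannot be told apart. The difference between the 3' and 5' control probe sets of ACTB, a measure of RNA integrity, was 0.317, 0.239 and 0.430 in H tax and 0.229, 0.107 and 0.237 in N tax, which was not tested as a part of the results either.

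Hypoxia with paclitaxel raised 612 probe sets (2.61% of those tested) and lowered 880 (3.76%) at an adjusted p under 0.05 in limma. The rises were the larger changes. Their median was 0.79 on the log2 scale, 209 were at least 2-fold and 41 at least 4-fold, whereas the falls had a median of -0.58, 72 were at least 2-fold and none of them was 4-fold. The 3 H tax arrays and the 3 N tax arrays did not overlap for 604 of the 612 raised and 857 of the 880 lowered probe sets, against 25.6% of all probe sets tested. With arrays 1 and 2 only, 261 probe sets were raised (1.13%) and 68 lowered (0.294%), and all of the raised and lowered probe sets that could be tested there (607 and 867) had the same sign. Of these, 241 raised and 60 lowered probe sets were again past the test. The excess of falls depended on the scaling: 41.0% of the called probe sets were raised as deposited, 49.5% after quantile normalization (817 raised, 832 lowered) and 59.8% after centring each array on its median (702 raised, 472 lowered). Counted by gene, 304 of 10964 named genes were raised (2.77%) and 403 lowered (3.68%), with a median log2 change of -0.04 over all of them.

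The promoters of genes that responded show how often the letters of a HIF site occur. HIF binds a short core, ACGTG or GCGTG, within hypoxia response elements, and both were searched on both strands in the 250 bases before the first start listed for each gene in RefSeq (GRCh38.p14), with overlapping matches counted once. Of the 12 genes with the largest rises, 9 had a promoter in the table and 8 of those held a match, whereas 8 of 11 did among the 12 largest falls. Over larger groups, a match was in 56.9% of 248 raised genes, 56.8% of 340 lowered genes and 58.2% of 9055 tested genes. It was in 43.1% of all 27305 promoters. ACGTG alone was in 30.6% of the raised, 22.4% of the lowered and 24.1% of the tested genes. A match is a description of the letters and not a binding site. These 4 promoters are shown because they belong to strongly raised genes whose matches range from none to 4: ALDOC (chr17:28576896-28577145, minus strand), ANKRD37 (chr4:185396591-185396840, plus strand), MIR210HG (chr11:568458-568707, minus strand) and TMEM45A (chr3:100492369-100492618, plus strand). Capitals mark ACGTG or GCGTG on either strand.
ALDOC: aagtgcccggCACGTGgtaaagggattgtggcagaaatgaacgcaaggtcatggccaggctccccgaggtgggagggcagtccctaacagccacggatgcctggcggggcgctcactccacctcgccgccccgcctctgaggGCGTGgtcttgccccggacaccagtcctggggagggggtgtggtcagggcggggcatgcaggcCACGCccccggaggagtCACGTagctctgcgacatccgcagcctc
ANKRD37: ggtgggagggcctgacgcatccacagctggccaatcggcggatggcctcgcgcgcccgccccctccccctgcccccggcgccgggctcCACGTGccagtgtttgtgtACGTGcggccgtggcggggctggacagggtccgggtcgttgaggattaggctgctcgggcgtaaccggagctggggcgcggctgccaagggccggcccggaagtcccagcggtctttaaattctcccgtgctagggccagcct
MIR210HG: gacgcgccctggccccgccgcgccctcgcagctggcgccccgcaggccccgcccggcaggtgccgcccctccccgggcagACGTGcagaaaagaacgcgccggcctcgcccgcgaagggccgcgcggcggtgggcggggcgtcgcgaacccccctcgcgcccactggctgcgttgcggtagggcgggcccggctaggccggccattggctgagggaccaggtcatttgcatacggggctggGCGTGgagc
TMEM45A: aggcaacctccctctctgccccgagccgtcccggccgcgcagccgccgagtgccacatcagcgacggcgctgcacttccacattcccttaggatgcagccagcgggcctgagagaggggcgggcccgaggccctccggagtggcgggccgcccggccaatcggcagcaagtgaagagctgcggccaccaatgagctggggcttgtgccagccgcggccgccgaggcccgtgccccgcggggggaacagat
ALDOC held 4 separate matches, beginning at -240, -108, -45 and -28 from the start, ANKRD37 held 2 at -162 and -143, MIR210HG held 2 at -170 and -9, and TMEM45A held none in this window.

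Among named genes, each taken by its brightest probe set, the largest rise was that of SPAG4, a gene of the nuclear envelope SUN family. Over all raised probe sets, the highest log2 change was 6.08. SPAG4 gave 10.62, 10.84 and 10.44 in H tax and 5.89, 5.62 and 5.61 in N tax, so the lowest H tax array was far above the highest N tax array. The log2 change was 4.93 ± 0.37 (SE, n = 3 arrays per condition), or 30.5-fold, with a limma adjusted p of 8.85e-07. MIR210HG, the noncoding host transcript of the hypoxia microRNA miR-210, gave 7.26, 7.10 and 6.91 in H tax and lay at 2.24 on all 3 N tax arrays, under the presence threshold. H tax thus exceeded N tax at least 15.4-fold (adjusted p = 1.36e-08), a bound that sets the mean of the condition with signal against the threshold. The arrays measured the host and not the microRNA itself, whose main mature form is shown here because its seed, bases 2 to 8 in capitals, defines the targets it can pair with (RefSeq, GRCh38.p14, chr11:568112-568133, minus strand).
hsa-miR-210-3p: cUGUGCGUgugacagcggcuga

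Of the 12 largest rises, 3 were of genes known in glucose or lipid handling. ALDOC, an aldolase of glycolysis, gave 10.00, 9.91 and 9.59 in H tax and 4.98, 5.40 and 5.13 in N tax (log2 change 4.66 ± 0.26, 25.3-fold, adjusted p = 3.13e-08). PFKFB4, whose product sets the level of the glycolytic activator fructose 2,6-bisphosphate, gave 12.45, 12.55 and 12.14 in H tax and 8.07, 8.16 and 8.13 in N tax (4.26 ± 0.18, adjusted p = 4.85e-09). ANGPTL4, a secreted inhibitor of lipoprotein lipase, gave 10.00, 10.22 and 9.20 in H tax and 5.24, 5.60 and 5.31 in N tax (4.43 ± 0.20, adjusted p = 8.27e-09). In each of the 3 genes every H tax array exceeded every N tax array, which the choice of the 12 largest rises required. AK4, a mitochondrial adenylate kinase, gave 10.64, 10.22 and 10.13 in H tax and 7.58, 7.29 and 7.29 in N tax (2.95 ± 0.14, adjusted p = 8.27e-09). The other probe sets of AK4 had log2 changes of 1.85 to 2.50.

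TMEM45A, a transmembrane protein gene that the study followed up, gave 11.26, 11.05 and 10.70 in H tax and 7.31, 6.87 and 7.53 in N tax. The log2 change was 3.77 ± 0.30, or 13.6-fold, with an adjusted p of 1.92e-06. RASSF4, a Ras-association domain gene, was raised by 3.42 ± 0.36, ANKRD37, an ankyrin repeat gene and known HIF target, by 3.36 ± 0.43, and NDRG1, a stress-response gene, by 2.80 ± 0.19. NDRG1 was among the brightest transcripts measured, with 15.45, 15.25 and 15.06 in H tax and 12.41, 12.23 and 12.71 in N tax. A pair of transcripts were under the threshold on all N tax arrays. CFAP96, a cilia and flagella associated protein gene, gave 6.50, 6.27 and 5.97 in H tax and exceeded N tax at least 8.60-fold, and LOC154761 gave 7.47, 6.66 and 6.40 in H tax and exceeded N tax at least 13.0-fold. All of these 12 genes remained past the test with arrays 1 and 2 only.

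**Figure D1:**
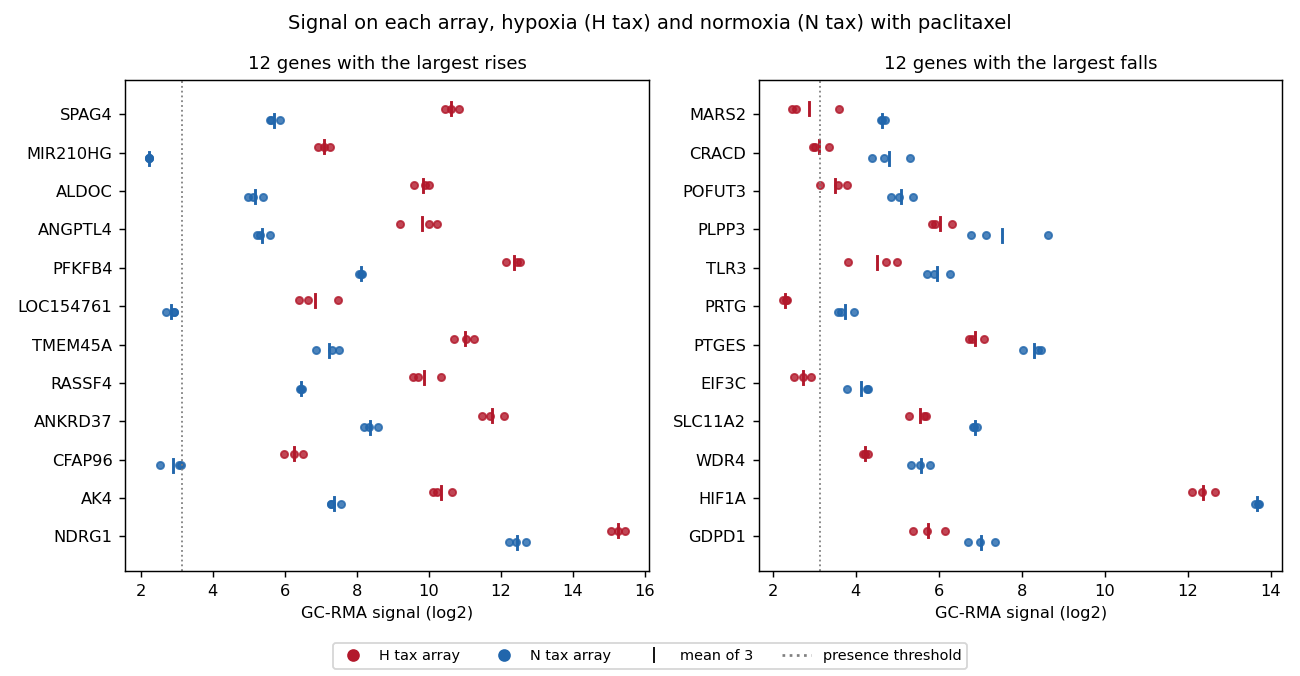
GC-RMA signal (log2) on each H tax array (red) and N tax array (blue) for the 12 genes with the largest rises (left) and the 12 with the largest falls (right), with short bars at the mean of 3 arrays and a dotted line at the presence threshold of 3.14. The rises shown reach 4.93 log2 units (SPAG4), while the largest fall shown is -1.77 (MARS2), and several lowered genes end near or under the threshold in H tax.

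Among genes of the general hypoxia response, 31 of 34 listed genes were tested, 23 were raised, 1 was lowered and 7 did not pass the test, with a median log2 change of 1.71, where 2.77% of all named genes were raised and 3.68% lowered. MIR210HG and EGLN3 were above the presence threshold in H tax only, so they could enter the test in no other way. With arrays 1 and 2 only, 21 were raised. The members not past the test included 3 classical HIF targets. VEGFA, the main angiogenic growth factor, gave 13.72, 13.28 and 13.29 in H tax and 13.17, 13.04 and 13.22 in N tax (log2 change 0.28 ± 0.41, adjusted p = 0.79). ADM, the vasodilator adrenomedullin, gave 13.02, 12.41 and 11.84 in H tax and 10.86, 10.61 and 10.84 in N tax (1.65 ± 0.58, adjusted p = 0.108). DDIT4, an inhibitor of mTORC1, gave 14.34, 14.20 and 14.17 in H tax and 13.57, 13.87 and 13.69 in N tax (0.53 ± 1.12, adjusted p = 0.874). The SE of ADM and DDIT4 came from the spread on all 18 arrays, and from the 6 paclitaxel arrays alone it was 0.30 for ADM (adjusted p = 0.058) and 0.10 for DDIT4 (adjusted p = 0.0663). The only lowered member was RIOX2, a ribosomal oxygenase, at -0.41 ± 0.11 (adjusted p = 0.0386). Its call was lost with arrays 1 and 2 only (adjusted p = 0.209), in the 6 paclitaxel arrays alone (adjusted p = 0.146) and with a replicate block.

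Most genes of glycolysis rose. Of 26 tested genes, 21 were raised and none was lowered, with a median of 0.78, and 17 were raised with arrays 1 and 2 only (2.77% of all named genes were raised with all arrays). ENO3, which was not among the 21, entered the test through H tax only. HK2, the hexokinase that traps glucose, gave 10.85, 10.41 and 10.32 in H tax and 8.26, 8.07 and 8.21 in N tax (2.35 ± 0.18). PDK1, the kinase that shuts pyruvate out of the mitochondrial citrate cycle, gave 10.04, 9.59 and 9.39 in H tax and 6.89, 6.90 and 7.02 in N tax (2.74 ± 0.13). Both genes were separated without overlap. PFKFB3, the other inducible kinase of fructose 2,6-bisphosphate, was raised by 2.16 ± 0.22 and the enolase ENO2 by 2.09 ± 0.11. GAPDH, already near the top of the measured range at 16.34, 16.40 and 16.37 in H tax and 16.20, 16.30 and 16.17 in N tax, differed by 0.14 ± 0.07 (adjusted p = 0.247), and LDHB (-0.07) and PFKM (-0.35) did not pass the test either. Of 20 respiratory chain genes tested, 0 passed the test in limma, 2 had an unadjusted p under 0.05, and the median was -0.04.

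Genes of oxygen sensing moved in both directions. EGLN1 and EGLN3, prolyl hydroxylases that mark HIF alpha subunits, were raised. EGLN1 gave 12.13, 11.69 and 11.64 in H tax and 10.25, 9.83 and 10.28 in N tax (1.70 ± 0.20). EGLN3 gave 5.72, 5.46 and 4.53 in H tax and 3.03 on all 3 N tax arrays, so that H tax exceeded N tax at least 4.27-fold. The other probe set of EGLN3 differed by 1.17 ± 0.38 (adjusted p = 0.0801). HIF1A, the transcript of the HIF-1 alpha subunit, was lowered, with 12.35, 12.11 and 12.67 in H tax and 13.61, 13.70 and 13.71 in N tax. The log2 change of HIF1A was -1.30 ± 0.15 (adjusted p = 7.27e-05), with an adjusted p of 0.00229 with arrays 1 and 2 only. Its arrays did not overlap between conditions, which was required of the 12 largest falls. The transcripts of EPAS1, the HIF-2 alpha subunit (-0.12 ± 0.21), and of HIF1AN, the asparaginyl hydroxylase (0.00 ± 0.19), did not pass the test. In all, 2 of 11 tested genes of oxygen sensing were raised and 1 was lowered, also with arrays 1 and 2 only. With all arrays, 2.77% of all named genes were raised and 3.68% lowered. The 2 raised genes of oxygen sensing include EGLN3, which entered the test through H tax only and could not have been called as a fall.

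Genes of collagen and matrix crosslinking followed, a list of enzymes that also holds collagens, FN1 and SERPINH1. Of 16 tested genes, 8 were raised and 2 were lowered, with a median of 0.60, where 2.77% of all named genes were raised and 3.68% lowered. With arrays 1 and 2 only, 7 were raised and 1 lowered. P4HA1, the collagen prolyl 4-hydroxylase subunit, gave 10.90, 10.76 and 10.42 in H tax and 8.22, 8.41 and 8.48 in N tax (2.32 ± 0.14). PLOD2, a collagen lysyl hydroxylase, was raised by 2.01 ± 0.16, LOX, the lysyl oxidase that crosslinks collagen, by 1.71 ± 0.19, and P4HA2 by 1.24 ± 0.15, all without overlap of arrays. The lowered members were COL4A1, a basement membrane collagen, at -0.60 ± 0.11, and PLOD3 at -0.46 ± 0.12, whose arrays overlapped and which was not past the test with arrays 1 and 2 only (adjusted p = 0.0889). The other probe set of COL4A1 differed by -0.23 ± 0.21 (adjusted p = 0.626). Of 12 angiogenic and secreted factors tested, 3 were raised, namely ANGPTL4, the growth factor binding protein IGFBP3 (1.33 ± 0.19) and the ribonuclease angiogenin, ANG (1.03 ± 0.21). The call of ANG was lost with arrays 1 and 2 only (adjusted p = 0.168) and in the 6 paclitaxel arrays alone (adjusted p = 0.0537).

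Most genes of cell death did not pass the test. Of 11 tested pro-apoptotic members of the BCL2 family, 3 were raised, where 2.77% of all named genes were raised and 3.68% lowered. The BNIP3 and BNIP3L products are best known as mitophagy receptors. BNIP3 gave 14.92, 14.55 and 14.65 in H tax and 12.58, 12.37 and 12.47 in N tax (2.23 ± 0.12), and BNIP3L was raised by 1.47 ± 0.16. BIK, a BH3-only gene, gave 4.44, 5.57 and 4.27 in H tax and 3.76, 3.76 and 3.53 in N tax (1.08 ± 0.25, adjusted p = 0.0184), a rise that was not past the test with arrays 1 and 2 only (adjusted p = 0.12). BAX (-0.45 ± 0.23), BAD (-0.11 ± 0.12) and PMAIP1 (-0.15 ± 0.16) did not pass the test, nor did any of the 4 anti-apoptotic members, among them MCL1 (0.31 ± 0.73) and BCL2L1 (0.20 ± 0.12). Of 15 tested caspases, caspase regulators and inhibitors of apoptosis, 0 passed the test in limma by brightest probe set and 2 had an unadjusted p under 0.05. Of their 34 tested probe sets, 2 were lowered. These 15 included BIRC5, or survivin (0.08 ± 0.09), and DIABLO (-0.07 ± 0.11). Among 13 death receptors, ligands and adaptors, TNFSF10, the ligand TRAIL, gave 8.88, 8.88 and 7.90 in H tax and 6.46, 7.25 and 6.08 in N tax (1.96 ± 0.31, adjusted p = 0.00166). TNFRSF10A, a receptor for TRAIL, was lowered at -0.63 ± 0.12, TNFRSF21 was lowered at -0.58 ± 0.09, and the adaptor TRADD was raised by 0.53 ± 0.11. TNFRSF10A and TRADD were not past the test with arrays 1 and 2 only. The other probe set of TRADD differed by 0.43 ± 0.26 (adjusted p = 0.400). The other TRAIL receptors on the list did not pass the test with all arrays. TNFRSF10B differed by -0.05 ± 0.22 (adjusted p = 0.951), TNFRSF10D by 0.50 (adjusted p = 0.0551) and TNFRSF10C by 0.002.

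Genes of drug handling and of the drug's target were listed as well, where 2.77% of all named genes were raised and 3.68% lowered. Of 9 tested efflux transporters, ABCB6, a mitochondrial porphyrin transporter, was raised by 0.99 ± 0.18, while ABCG2 (-0.75 ± 0.21, adjusted p = 0.0474) and ABCC5 (-0.67 ± 0.18, adjusted p = 0.0397) were lowered. These 3 were not past the test with arrays 1 and 2 only. The other probe set of ABCC5 differed by -0.12 ± 0.22 (adjusted p = 0.847). Of 13 tubulins, TUBB6 was raised by 0.42 ± 0.10, a call lost with arrays 1 and 2 only (adjusted p = 0.144) and when any of 5 arrays was left out, and 12 did not pass the test, including TUBB (-0.12 ± 0.09), a subunit of the polymer that paclitaxel binds. Of 30 genes of mitosis and the spindle, 0 passed the test in limma, 2 had an unadjusted p under 0.05 and the list median lay within 0.01 of no change. By brightest probe set, no call was made in limma either among 25 genes of DNA replication (4 with an unadjusted p under 0.05). The same held for 18 ER chaperones and 19 genes of the integrated stress response (3 with such a p in each list). Of all tested probe sets of these 2 lists, 1 of 38 and 1 of 29 were lowered.

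**Figure D2:**
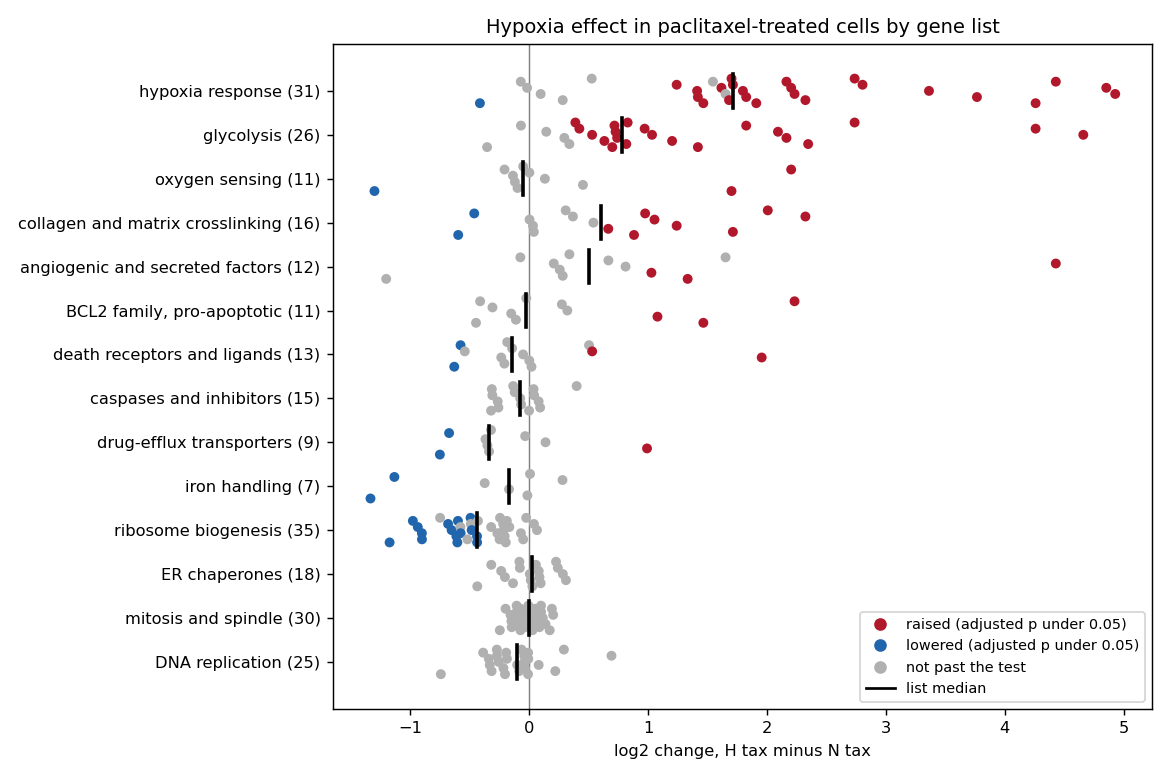
Log2 change of each tested gene (H tax minus N tax) by gene list, with the number of tested genes in brackets; points are red when raised, blue when lowered and grey when not past the test, and the black bar is the list median. Hypoxia response (median 1.71), glycolysis (0.78) and collagen and matrix crosslinking (0.60) lie to the right, ribosome biogenesis (-0.44) to the left, and mitosis around no change.

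The falls were smaller than the rises. MARS2, the mitochondrial methionyl-tRNA synthetase, gave 2.55, 3.58 and 2.47 in H tax and 4.69, 4.63 and 4.60 in N tax (-1.77 ± 0.25, adjusted p = 0.00059). POFUT3, a fucosyltransferase gene formerly named FUT10, gave 3.13, 3.57 and 3.79 in H tax and 5.05, 4.85 and 5.37 in N tax (-1.59 ± 0.16). PTGES, the inducible prostaglandin E synthase, gave 6.81, 6.73 and 7.10 in H tax and 8.02, 8.40 and 8.46 in N tax (-1.41 ± 0.17). None of the 3 overlapped between conditions. Also lowered were CRACD, an inhibitor of actin capping (-1.69 ± 0.22), TLR3, the receptor for double-stranded RNA (-1.44 ± 0.33), the lipid phosphatase PLPP3 (-1.49 ± 0.39), WDR4, a subunit of the tRNA guanine methyltransferase (-1.33 ± 0.19), and the phosphodiesterase GDPD1 (-1.28 ± 0.27). PRTG was at least 1.50-fold lower and EIF3C, a subunit of translation initiation factor eIF3 with a near-identical copy in the genome, at least 1.97-fold lower in H tax, where both were under the threshold on all 3 arrays. With arrays 1 and 2 only, MARS2, PLPP3, TLR3, SLC11A2 and GDPD1 were no longer past the test, with adjusted p-values of 0.0762, 0.216, 0.12, 0.124 and 0.0842. Their signs were unchanged, which the choice of these falls also required.

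SLC11A2 and TFRC, genes of iron uptake, were lowered. SLC11A2, the divalent metal transporter, gave 5.64, 5.70 and 5.28 in H tax and 6.86, 6.93 and 6.83 in N tax (-1.33 ± 0.23). TFRC, the transferrin receptor, gave 11.93, 12.06 and 11.84 in H tax and 12.98, 13.30 and 12.94 in N tax (-1.13 ± 0.21, adjusted p = 0.00599). These were 2 of 7 tested genes of iron handling, and 5, including the ferritin light chain FTL (0.01 ± 0.07), did not pass the test. Of all named genes, 3.68% were lowered. With arrays 1 and 2 only, the call of SLC11A2 was lost and 1 of the 7 was lowered. The other probe sets of SLC11A2 differed by -1.26 (adjusted p = 0.00751) and -0.35 (adjusted p = 0.389). Those of TFRC differed by -1.15, -1.41 and -0.02 (adjusted p = 0.00228, 0.000881 and 0.986). Ribosome biogenesis was listed after several of its genes had been seen among the falls. Of 35 tested genes, 15 were lowered and 0 raised, with a median of -0.44, where 3.68% of all named genes were lowered and 2.77% raised. RRS1, an assembly factor of the large subunit, gave 7.70, 7.86 and 8.06 in H tax and 9.32, 8.75 and 9.08 in N tax (-1.17 ± 0.33, adjusted p = 0.0468). UTP15 (-0.98 ± 0.22), URB2 (-0.94 ± 0.19), NOP2 (-0.90 ± 0.17) and NAF1 (-0.90 ± 0.20) were lowered as well. With arrays 1 and 2 only, none of these 35 genes passed the test. The nucleolar proteins FBL (0.07 ± 0.10) and NPM1 (-0.07 ± 0.09) did not pass it with all arrays.

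A few further lists held 1 to 3 calls each, where 2.77% of all named genes were raised and 3.68% lowered. KDM3A, a histone H3 lysine 9 demethylase, was raised by 1.91 ± 0.38 and KDM4B by 1.17 ± 0.29, in a list of 15 JmjC demethylases and related oxygenases of which 2 were raised and 1 lowered with all arrays and 0 with arrays 1 and 2 only. MXI1, an antagonist of Myc proteins, was raised by 1.62 ± 0.18, and MXD3, another member of that network, by 0.49 ± 0.13 (adjusted p = 0.0384), while MYC itself differed by -0.16 ± 0.78 (adjusted p = 0.958). MXD3 was not past the test with arrays 1 and 2 only (adjusted p = 0.3) or with a replicate block. DDB2, a DNA damage recognition factor, was raised by 1.16 ± 0.25 and TIGAR, a regulator of glycolysis, was lowered at -0.66 ± 0.12, the only 2 called among 16 tested p53 targets. HSPA4, a heat shock protein, was lowered at -0.61 ± 0.09, NR4A1 at -0.68 ± 0.18 and the interferon-stimulated IFI44L at -1.05 ± 0.25, each the only call in lists of 11 cytosolic heat shock proteins, 22 immediate early factors and 20 interferon-stimulated genes. LSS, lanosterol synthase, was raised by 0.63 ± 0.18, the only call among 17 sterol and fatty acid genes, and KRT19, a keratin on the luminal list, was raised by 0.87 ± 0.17. The calls of DDB2, TIGAR, NR4A1, IFI44L, LSS and KRT19 were lost with arrays 1 and 2 only, and that of HSPA4 held (adjusted p = 0.0172). The other probe set of NR4A1 differed by -0.11 ± 0.11 (adjusted p = 0.647). Of 17 inflammatory cytokine genes, 0 passed the test in limma and 1 had an unadjusted p under 0.05. CXCL8, or interleukin-8, overlapped widely, with 9.76, 8.69 and 9.67 in H tax and 8.77, 11.55 and 9.82 in N tax.

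The cut-offs of the study, at least 4-fold with an unadjusted p under 0.005, were applied here with the p of limma in place of the study's own. They returned 42 probe sets of 27 named genes, all of them higher in H tax. The study's own selection also held 27 genes, but not the same ones. For example, it included IL24, which was lower in H tax, and RAB20, which was raised less than 4-fold here. Of the 27 genes that the study selected on these arrays, 25 were raised and none lowered by their brightest probe set, with a median of 2.20, and 22 were raised with arrays 1 and 2 only. This is no independent evidence, because the genes were chosen on the same arrays. STC1, CALHM6, GDF15 and S100A10 were outside that selection and were followed by PCR. Of these 4 genes, 2 were raised on the arrays. Genes of both groups not already described include WFDC3 (1.91 ± 0.19), MALL (2.03 ± 0.17), POFUT4, formerly FUT11 (2.18 ± 0.15), RAB20, a small GTPase (1.77 ± 0.28), ANKZF1 (1.82 ± 0.17), ZNF395 (1.63 ± 0.10), CALHM6 (1.49 ± 0.10), DEPP1 (2.20 ± 0.34) and S100A10 (0.36 ± 0.08). The calls of RAB20 (adjusted p = 0.0709), DEPP1 (adjusted p = 0.111) and S100A10 (adjusted p = 0.145) were lost with arrays 1 and 2 only. The brightest probe sets of the remaining 4 did not pass the test. IL24, a cytokine of the IL-10 family, gave 5.79, 4.81 and 6.26 in H tax and 7.75, 8.06 and 8.17 in N tax, without overlap (-2.37 ± 0.77, adjusted p = 0.0848). GDF15, a stress-induced cytokine, gave 10.00, 9.83 and 10.14 in H tax and 10.79, 11.66 and 11.11 in N tax (-1.20 ± 0.87, adjusted p = 0.503). PGF, the placental growth factor, differed by -0.07 ± 0.14 on its brightest probe set and was raised by 1.76 ± 0.26 on its other one (adjusted p = 0.000937, and 0.0018 with arrays 1 and 2 only). STC1, or stanniocalcin, differed by 0.81 ± 0.23 (adjusted p = 0.0512).

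To ask whether the drug altered the response to hypoxia, the effect in paclitaxel-treated cells was set against that in cells without drug, 6 other arrays. H against N raised 1661 probe sets (7.09%) and lowered 3180 (13.6%). Of the 612 probe sets raised with paclitaxel, 434 were also raised without it, 70.9% of the paclitaxel list and 26.1% of the drug-free list, and 5 were lowered. Of the 880 lowered with paclitaxel, 457 were lowered without it, 51.9% and 14.4% of those lists. Tested directly, the hypoxia effect differed between paclitaxel and control for 243 probe sets (1.04%), higher with paclitaxel for 151 and lower for 92. Of the 151, 141 were lowered by hypoxia without the drug, and of the 92, 68 were raised without it. Because both sets were chosen by the difference itself, such a split is in part built in. With arrays 1 and 2 only, 7 probe sets differed, among them probe sets of TFRC, EIF3C, ARTN and GDPD1.

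TMEM45A was raised in both settings but less with paclitaxel. It reached 11.26, 11.05 and 10.70 in H tax, close to its 11.43, 11.34 and 11.26 in H, whereas it was 7.31, 6.87 and 7.53 in N tax and 4.62, 4.50 and 5.79 in N. The difference of the effects was -2.61 ± 0.43 (adjusted p = 0.0119, and 0.109 with arrays 1 and 2 only). UCN2, the peptide urocortin 2, gave 5.16, 4.60 and 4.65 in H tax and 3.25, 3.43 and 3.43 in N tax, against 8.05, 8.20 and 8.06 in H and 3.94, 3.87 and 4.07 in N. Its rise of 1.44 ± 0.16 with paclitaxel was smaller by -2.71 ± 0.23 (adjusted p = 4.56e-05) than that of 4.14 without it. ARTN, a neurotrophic ligand of the RET receptor (difference -2.56 ± 0.42), the lipid transporter ABCA7 (-1.82 ± 0.34) and LINC02535 (-1.89 ± 0.28) were raised in H but differed by 0.11, 0.06 and 0.39 between H tax and N tax, without a call. LOX (-1.80 ± 0.27), EGLN3 (-1.73 ± 0.35), MXI1 (-1.71 ± 0.26), ANG (-1.70 ± 0.30) and P4HA1 (-0.998 ± 0.20) rose in both settings and less with the drug. ANG was nevertheless higher in H tax (8.18, 7.77 and 8.41) than in H (7.25, 6.97 and 6.66). It was also higher in N tax (6.96, 7.09 and 7.22) than in N (3.98, 4.30 and 4.40). EGLN3 lay under the threshold on all N tax and N arrays, so both of its rises are bounds and the size of their difference is not known. Of the 31 hypoxia response genes, 5 had a lower effect with paclitaxel and 0 a higher one, where 1.04% of all probe sets tested differed in either direction. None of the 26 glycolysis genes differed, which is near that share.

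TFRC showed the opposite difference. It gave 11.93, 12.06 and 11.84 in H tax and 12.98, 13.30 and 12.94 in N tax, against 8.996, 9.04 and 10.10 in H and 12.93, 13.01 and 12.99 in N, so that its fall with paclitaxel was smaller by 2.47 ± 0.30 (adjusted p = 0.00255, and 0.00573 with arrays 1 and 2 only). GPATCH4 (1.34 ± 0.17) and TMEM138, a ciliary membrane protein gene (1.43 ± 0.25), were lowered in both settings and less with the drug. Their calls in H tax against N tax were lost with arrays 1 and 2 only and in the 6 paclitaxel arrays alone. That of TMEM138 was lost in 10 alternatives in all. ARHGAP5-AS1 (1.76 ± 0.20), MED22, a Mediator subunit (1.58 ± 0.34), and CENPO, a kinetochore protein (1.36 ± 0.27), were lowered in H against N and did not pass the test in H tax against N tax. Of the 30 genes of mitosis and the spindle, 17 were lowered by hypoxia without the drug (15.4% of all named genes were) and 0 with it (3.68% were). The effect differed for 6, each higher with paclitaxel, where 1.04% of all probe sets tested differed in either direction. PLK1, a mitotic kinase, gave 10.70, 11.03 and 11.09 in H tax and 10.91, 11.02 and 10.59 in N tax, against 8.89, 9.39 and 9.46 in H and 10.46, 10.49 and 10.42 in N (difference 1.31 ± 0.27, adjusted p = 0.0319). CDC20, the activator of the anaphase-promoting complex, differed by 1.22 ± 0.20 (adjusted p = 0.0119) and cyclin B1, CCNB1, by 0.93 ± 0.13 (adjusted p = 0.00725). These 3 were chosen after their values were seen, and none of the 6 passed with arrays 1 and 2 only. Of the 18 ER chaperones, 9 were raised in H against N (7.27% of all named genes were) and 0 in H tax against N tax (2.77% were). The effect differed for 1 of the 18.

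In 3 genes the hypoxia effect differed and the transcript was under the threshold without the drug. CCL5, a chemokine that attracts T cells, was chosen after its values were seen. It gave 7.08, 7.35 and 7.57 in H tax and 5.79, 6.02 and 6.20 in N tax (1.33 ± 0.13, adjusted p = 1.1e-05), and was under the threshold on all H and N arrays, between 2.31 and 2.47. The effects differed by 1.29 ± 0.18 (adjusted p = 0.00573, and 0.145 with arrays 1 and 2 only). EIF3C gave 2.73, 2.50 and 2.93 in H tax and 4.27, 4.30 and 3.79 in N tax, whereas H and N lay under the threshold on every array (difference -1.31 ± 0.18, adjusted p = 0.00573). PRTG gave 2.24, 2.32 and 2.34 in H tax and 3.57, 3.65 and 3.96 in N tax, and was likewise under the threshold in H and N (difference -1.46 ± 0.18, adjusted p = 0.00241). For these 3 genes the level in H and N is bounded by the threshold, so the size of the difference is not known.

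**Figure D3:**
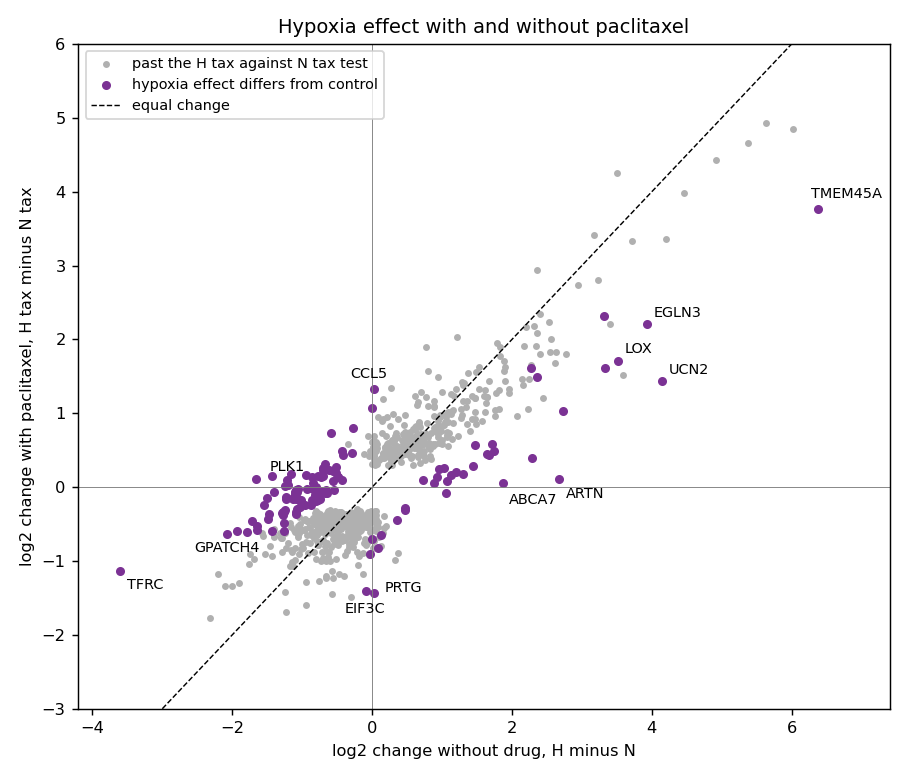
Log2 change by hypoxia with paclitaxel (vertical, H tax minus N tax) against that without drug (horizontal, H minus N), 1 point per gene; grey points passed the H tax against N tax test, purple points had an effect that differed, and the dashed line marks equal change. TMEM45A (3.77 with paclitaxel, 6.37 without) and TFRC (-1.13 and -3.60) lie far from the line, and CCL5, EIF3C and PRTG lie near the vertical axis.

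The same oxygen change was also measured in cells given epirubicin. H epi against N epi raised 157 probe sets (0.67%) and lowered 1064 (4.54%) (1221 in all, or 214 with arrays 1 and 2 only). The hypoxia effect differed between paclitaxel and epirubicin for 876 probe sets (3.74%), or 171 with arrays 1 and 2 only. Of the 31 hypoxia response genes, 23 were raised in H tax against N tax, 0 in H epi against N epi (0.365% of named genes raised, 6.11% lowered) and 24 in H against N (7.27% raised, 15.4% lowered), and for 25 of them the effect was higher with paclitaxel than with epirubicin. BNIP3, at 14.92, 14.55 and 14.65 in H tax against 12.58, 12.37 and 12.47 in N tax, changed by 0.07 in H epi against N epi. HIF1A changed by -1.30 with paclitaxel and by -0.01 with epirubicin.

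**Figure D4:**
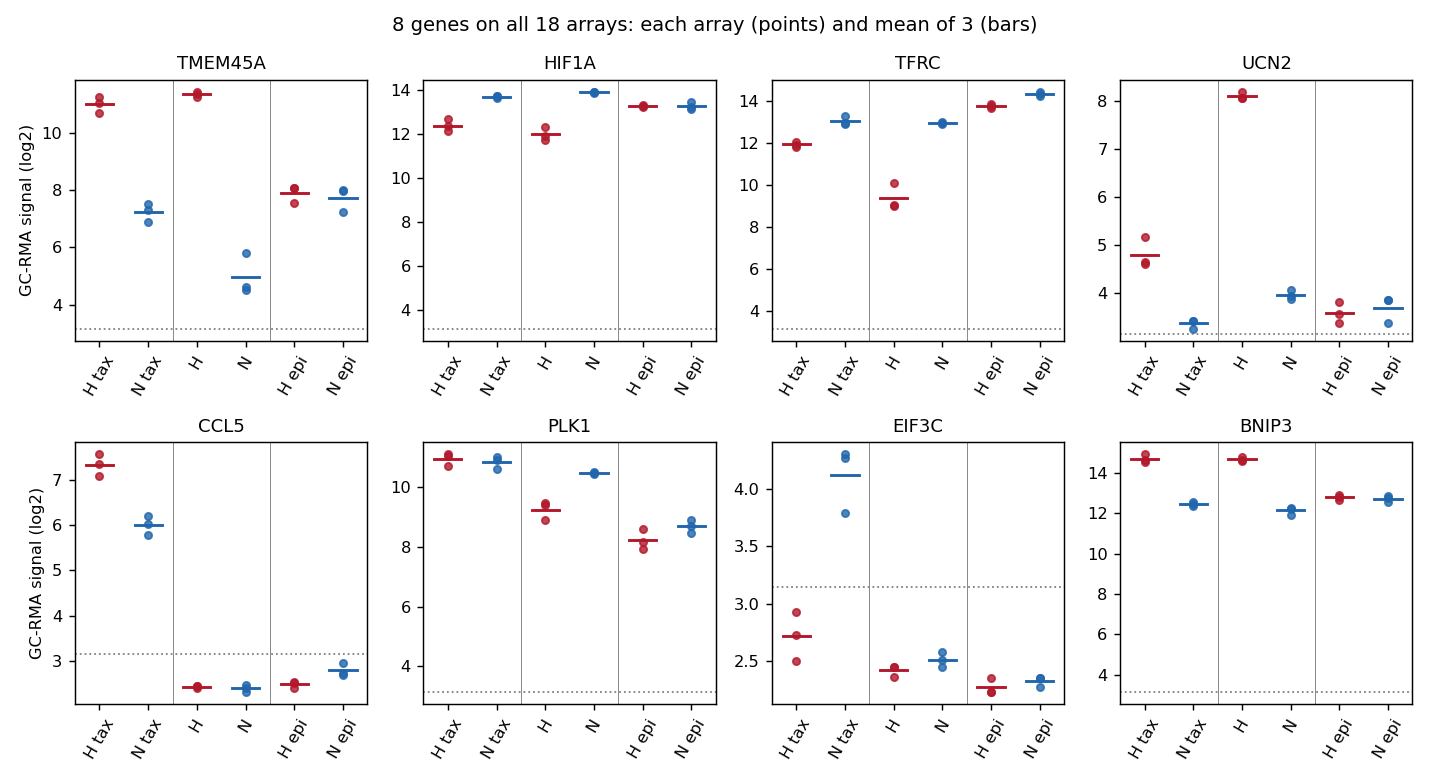
GC-RMA signal (log2) of 8 genes on all 18 arrays, with 1 point per array, a bar at the mean of 3 and the presence threshold dotted; each pair of conditions has hypoxia (red) left of normoxia (blue). TMEM45A and BNIP3 stand higher in H tax relative to N tax, TFRC and HIF1A are lower, and CCL5 is above the threshold with paclitaxel only.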

How the data were processed

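The deposited values, log2 signals that the authors obtained by GC-RMA, were used as given. The methods name AffyProbeMiner chip definitions, while the probe sets carry standard Affymetrix names. Of 54675 probe sets, 62 controls were left out, 41091 of all had 1 gene symbol in the platform table, 1801 had several and 11721 none, and probe sets without 1 symbol were tested and left unnamed. Probe sets entered the test with a linear signal over the study's presence threshold of 8.84 on at least 2 arrays of H tax or N tax (23416). The 18 arrays were fitted together by condition with limma 3.58.1 in R 4.3.3, with 12 residual degrees of freedom. All tests were two-sided, p-values were adjusted by Benjamini-Hochberg over all probe sets tested with a threshold of 0.05, and the fit was tested on simulated data. Each gene is given by its tested probe set with the highest mean. For some genes whose brightest probe set passed the test, another probe set did not. Errors of changes are SE of the fit of all 18 arrays, so they also hold the spread within the other conditions. Folds against a condition wholly under the threshold are lower bounds against it.

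Named genes are the 12 largest rises and 12 largest falls past the test, without overlap and of the same sign with arrays 1 and 2 only, the genes the study selected or measured by PCR, up to 4 called members per list and direction, up to 3 uncalled members with the highest mean, and the 6 largest differences from control in each direction. The members and lists were chosen with earlier results of these data known. Values are limited in precision by 3 arrays per condition. Alternatives were arrays 1 and 2 only, the third arrays by source name, each array left out, other sample sets, a replicate block, other presence filters, quantile or median scaling and a trended variance.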

Additional observations from a re-analysis of the deposited data

Results flagged for a closer look

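The hypoxia effect differed between paclitaxel and control for 243 probe sets and between paclitaxel and epirubicin for 876, each tested as a difference of 2 effects within the fit of all 18 arrays. Among the genes described above, the effect of hypoxia was lower with paclitaxel than without drug, in log2 units, for UCN2 (-2.71), TMEM45A (-2.61), ARTN (-2.56), LINC02535 (-1.89), ABCA7 (-1.82), LOX (-1.80), EGLN3 (-1.73), MXI1 (-1.71), ANG (-1.70), PRTG (-1.46), EIF3C (-1.31) and P4HA1 (-0.998). It was higher with paclitaxel for TFRC (2.47), ARHGAP5-AS1 (1.76), MED22 (1.58), TMEM138 (1.43), CENPO (1.36), GPATCH4 (1.34), PLK1 (1.31), CCL5 (1.29) and CDC20 (1.22). The sizes for EGLN3, PRTG, EIF3C and CCL5 rest on levels under the presence threshold. With arrays 1 and 2 only, TFRC and EIF3C passed this test on the same probe set, and the other genes named here did not.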

How the results depend on the processing

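The 612 raised and 880 lowered probe sets became 261 and 68 with arrays 1 and 2 only, which have fewer samples, and 278 and 193 when the 6 paclitaxel arrays were fitted alone. With the arrays numbered 3 placed by source name, 0 were raised and 0 lowered in limma, 229 had an unadjusted p under 0.05 (4782 by title), the 4-fold selection of 42 held 1, and MXD3 reversed to -0.11. Leaving out 1 array gave 435 to 581 raised and 405 to 932 lowered, with lowered counts of 476 without H tax replicate 2, 523 without H tax replicate 3, 483 without N tax replicate 1 and 405 without N tax replicate 3. The lowered count was 568 without a presence filter and 472 after median centring. The 243 probe sets that differed from control were 7 with arrays 1 and 2 only, 0 by source name, 378 after quantile normalization, 140 after median centring and 123 to 492 with 1 array left out (492 without H tax 1, 157 without H tax 2, 123 without H tax 3, 128 without N tax 1, 126 without N tax 3). The 876 that differed from epirubicin were 171 with arrays 1 and 2 only, 0 by source name, 533 without a presence filter and 515 to 880 with 1 array left out (583 without H tax 3, 515 without N tax 1). H against N called 4841, or 2173 with arrays 1 and 2 only and 1 by source name, and H epi against N epi called 1221, or 214, 0 and, without a presence filter, 696. The cause of these changes was not tested, other than that fewer samples enter some of them. The list of ribosome biogenesis genes was added after the data were seen.

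A replicate block gave 655 raised and 866 lowered probe sets, and 276 that differed from control. Deviations of same-numbered H tax and N tax arrays correlated at 0.137, 0.347 and 0.0876. Pairs of unlike number ranged from -0.312 to 0.222, the highest being H tax 1 with N tax 3. These values do not settle whether same-numbered arrays came from the same experiment. Of 178 genes described or listed with values, 144 kept sign and side of the threshold with arrays 1 and 2 only, 153 with the 6 arrays alone, 174 with the block and 163 to 168 with 1 array left out. The 12 largest rises stayed past the test in every alternative but the source-name grouping. With 3 arrays per condition, small changes near the presence threshold could not be measured.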
